A study of Mus musculus with 10 samples.

Results

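Voltage-gated potassium channels open when a neuron depolarises and let potassium leave the cell, which repolarises the membrane and limits repetitive firing. Each channel is a tetramer of alpha subunits, and members of the Kv1, Kv3, Kv4 and Kv7 families give currents that differ in threshold and speed. In the hippocampus Kv1 subunits are known from axons and terminals, Kv3 subunits from fast-spiking interneurons, Kv4 subunits from the dendrites of principal cells, and Kv7 subunits from the axon initial segment. The data here cover 8 such genes, namely Kcna1, Kcna2 and Kcna4 (Kv1), Kcnc1 and Kcnc2 (Kv3), Kcnd2 and Kcnd3 (Kv4) and Kcnq3 (Kv7). They were taken by name, through every array probe whose RefSeq accession belongs to them, which gave 11 of the 39429 probes. The sample channel was well above background on all 10 arrays for 10 of the 11 probes, and on none for the other, a second Kcnd3 probe (NM_019931). All 8 genes therefore had a measured probe, among 23574 features tested, of which 16268 carry a gene symbol.

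The study compared hippocampal RNA of adult mice with intact DLK (WT) and with a conditional knockout of DLK (cKO), a neuronal kinase upstream of JNK that is the product of Map3k12. Both genotypes were kept on a tamoxifen diet for 3 weeks, so the WT mice share that exposure. Each genotype had 5 mice, with 1 array per mouse, and the Cy5-labelled hippocampal sample was hybridised against Cy3-labelled Universal mouse reference RNA on every array. The sources used here do not give the recombinase, its promoter, the deleted exons, sex or age in weeks. Values are log2 ratios of sample over reference, and differences are cKO minus WT. The reference pool and the fixed dye orientation mean that a ratio is not a level that can be set against the ratio of another gene.

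Over the arrays the median Cy5 signal was between 146 and 202 and the median Cy3 signal between 131.5 and 141.5. Map3k12, the targeted gene, had a mean log2 ratio of 1.93 (SD 0.19) in the WT group and of 0.51 (SD 0.24) in the cKO group, a difference of −1.41 (SE 0.12, limma adjusted p = 0.000975). It was the only feature past the threshold of an adjusted p under 0.05, or 0.00424% of those tested. Listed markers of dentate granule cells (8 of 8 genes), CA1 (6 of 6) and CA3 (5 of 6) were measured, each well above background on all 10 arrays. Detection of these genes is not a test of tissue identity. Arrays of 4 cKO mice shared slide 1, those of 3 WT mice and cKO replicate 2 shared slide 2, and those of WT replicates 3 and 5 shared slide 3. Genotype can be compared within slide 2 alone. In such bulk tissue, fewer cells of a type and less RNA per cell cannot be told apart.

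None of the 8 potassium channel genes passed the threshold in the comparison of genotypes, and each had limma adjusted p = 0.99995. In 7 of the 8 the cKO mean was above the WT mean, and Kcna4 was the exception. A cKO mean above the WT mean was also found for 54.8% of all features. The median difference of the 8 genes was 0.09, against 0.01 over all features. The groups overlapped for every one of the 8 genes, while they did not overlap for 0.776% of all features. At an unadjusted p under 0.05, 1 of the 8 was higher in cKO samples, where 2.83% of all features were, and none was lower, where 1.03% were.

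**Figure D1:**
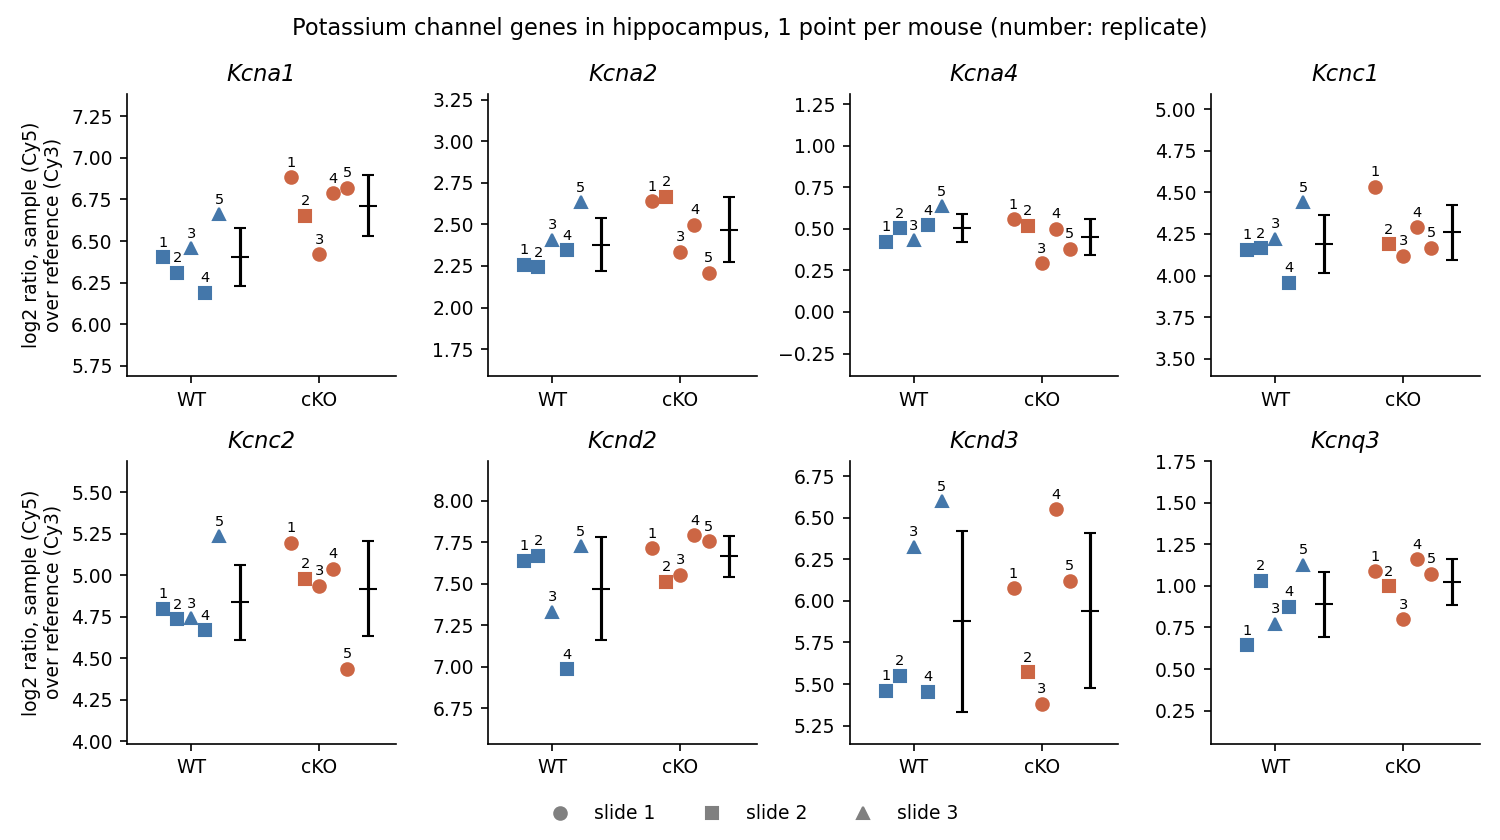
Log2 ratio of sample over reference for the 8 genes (y axis, each panel spanning the same range of log2 units) in WT and cKO mice (x axis); points are mice numbered by replicate, shapes are slides, and bars are the mean ± SD of 5 mice. WT replicate 5 is the highest WT mouse in all 8 panels, and the genotypes overlap in each.

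Kcna1 encodes Kv1.1, a low-threshold subunit of axons whose loss causes seizures in mice, and it had the largest difference of the 8. Its log2 ratios in WT replicates 1 to 5 were 6.40, 6.31, 6.46, 6.19 and 6.66. In cKO replicates 1 to 5 they were 6.88, 6.65, 6.42, 6.79 and 6.82. Of the 5 cKO mice, 3 lay above every WT mouse and all 5 above the WT median, but cKO replicates 2 and 3 lay within the WT range. The means were 6.40 ± 0.18 (SD, n = 5) and 6.71 ± 0.18 (SD, n = 5), a difference of 0.31 (SE 0.10, 95% interval 0.09 to 0.53), which is 1.24 times the WT level with an interval of 1.06 to 1.44. The unadjusted limma p was 0.00985. Leaving out single mice gave 0.26 to 0.38. Within slide 2 the difference was 0.35, a value that rests on 1 cKO mouse.

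The Kcna1 difference was smaller where the sample channel was read without the reference. With the Cy5 channel alone it was 0.06, with an unadjusted p of 0.760 in limma fitted over all features. With ratios scaled to a common distribution over arrays (quantile scaling) it was 0.17, with an unadjusted p of 0.0448 in limma fitted the same way. With all spots in the background fit it was 0.59. The mice were also further apart with the Cy5 channel alone. There the Kcna1 range was 0.92 over WT mice, in place of 0.47, and 0.72 over cKO mice, in place of 0.47. The Cy5 spot signals ran from 11468 to 23998 in WT and from 9607 to 19638 in cKO samples, so the groups overlapped. The Cy3 signal of the same spot, which reads the same reference RNA on each array, ran from 78 to 141. Its lowest value fell on cKO replicate 5 and its highest on WT replicate 5, the arrays with the lowest and highest Cy5 signals.

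Kcna2 encodes Kv1.2, the usual partner of Kv1.1 in axonal channels. The log2 ratios were 2.26, 2.24, 2.41, 2.35 and 2.63 in WT replicates 1 to 5, and 2.64, 2.67, 2.33, 2.50 and 2.21 in cKO replicates 1 to 5. The highest and the lowest of all 10 mice were both cKO mice. The difference was 0.09 (SE 0.10, 95% interval −0.13 to 0.31), and 0.04 to 0.16 when single mice were left out. Within slide 2 it was 0.38, where cKO replicate 2 was the highest of all mice and the 3 WT mice lay between 2.24 and 2.35. That value rests on 1 cKO mouse. With the scanner software's processed signals the sign turned (−0.01).

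Kcna4 encodes Kv1.4, a rapidly inactivating subunit of axons and terminals, and had the narrowest spread of the 8. Its WT log2 ratios were between 0.42 and 0.64 and its cKO values between 0.29 and 0.56. The difference was −0.05 (SE 0.07, 95% interval −0.20 to 0.09), with 2 of 5 cKO mice above the WT median. It turned to 0.04 within slide 2 and to 0.01 with array weights. This spot was bright in both channels, with Cy5 signals of 2821 to 4417 and Cy3 signals of 1982 to 2433. Its interval allows a fold change between 0.873 and 1.06 on this scale.

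Kcnc1 encodes Kv3.1, which carries the fast delayed-rectifier current of fast-spiking interneurons, and it was read by 3 probes. The brightest probe (NM_008421) gave WT log2 ratios of 4.16, 4.16, 4.22, 3.96 and 4.44 in replicates 1 to 5. In cKO replicates 1 to 5 it gave 4.53, 4.19, 4.12, 4.29 and 4.17. The means differed by 0.07 (SE 0.10, 95% interval −0.14 to 0.28), and only cKO replicate 1 exceeded all WT mice. The difference was 0.00339 without cKO replicate 1, 0.01 without WT replicate 4 and 0.14 without WT replicate 5. A second probe of the same accession gave 0.14 (SE 0.08), and a probe for NM_001112739 gave 0.26 (SE 0.20). All 3 probes had a higher cKO mean, and none of them passed in the test over 28682 probes, where 0.0105% did. None had an unadjusted p under 0.05 either, as 3.82% of probes had. For the 2 brightest probes, the difference between their genotype effects was −0.07 (SE 0.08, limma adjusted p = 0.999 over 4118 genes with several probes, of which 0.0243% passed and 4.37% had an unadjusted p under 0.05).

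The probe for NM_001112739 had 1 low array. WT replicate 4 had a log2 ratio of 3.95 there, against 4.78 to 5.31 in the other WT mice. Its Cy3 signal on that array was 66, against 38 to 49 on the other 9 arrays, while its Cy5 signal of 1773 was the lowest of the WT group. With the mean of the 3 probes the Kcnc1 difference was 0.16. With quantile scaling the difference of the brightest probe was −0.01, with median centring −0.01 and with the Cy5 channel alone −0.06.

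Kcnc2 encodes Kv3.2, which forms channels with Kv3.1 in the same class of interneurons. The log2 ratios in WT replicates 1 to 5 were 4.80, 4.73, 4.74, 4.67 and 5.24. In cKO replicates 1 to 5 they were 5.20, 4.98, 4.94, 5.04 and 4.44. WT replicate 5 stood apart from 4 close WT values, and cKO replicate 5 was the lowest of all 10 mice although 4 of 5 cKO mice lay above the WT median. The difference was 0.08 (SE 0.14, 95% interval −0.22 to 0.38). Leaving out cKO replicate 1 or WT replicate 4 gave 0.01 and 0.04, leaving out WT or cKO replicate 5 gave 0.18 and 0.20, and the value within slide 2 was 0.25. It turned to −0.01 with quantile scaling and to −0.05 with the Cy5 channel alone.

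Markers of the cells in which Kv3 channels are best known were measured in the same samples. Of 7 measured interneuron genes 6 had a higher cKO mean, with a median difference of 0.12, and none passed. The mean log2 ratio of these genes was 4.10 to 4.39 in WT and 4.25 to 4.33 in cKO mice. Pvalb, the calcium buffer that defines most fast-spiking cells, differed by 0.19 (SE 0.10), and Gad2, a GABA-synthesising enzyme, by 0.27 (SE 0.09). These were the largest of the list, and Tac1, the 1 gene with a lower cKO mean, differed by −0.20 (SE 0.20). With the Cy5 channel alone 4 of the 7 were higher and the median was 0.03. Their part in the Kcnc1 and Kcnc2 values was not tested.

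Kcnd2 encodes Kv4.2, the main A-type subunit of pyramidal cell dendrites. The log2 ratios were 7.64, 7.67, 7.33, 6.99 and 7.73 in WT replicates 1 to 5. In the cKO mice they were 7.71, 7.51, 7.55, 7.79 and 7.75, in the same order of replicates. WT replicate 4 was the lowest mouse, and 2 cKO mice lay above every WT mouse. The SD was 0.31 in WT and 0.12 in cKO samples, and the difference was 0.20 (SE 0.13, 95% interval −0.08 to 0.47). It was 0.07 without WT replicate 4 and 0.08 within slide 2. It was −0.01 with processed signals and 1.79 with plain background subtraction. The Cy3 signal of this spot was 36 to 43.5 over a local background of 30 to 40 and on no array well above it, so the ratio depends on how that background is treated.

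Kcnd3 encodes Kv4.3, an A-type subunit of interneurons and dentate granule cells, and had the widest spread of the 8. Its log2 ratios in WT replicates 1 to 5 were 5.46, 5.55, 6.33, 5.45 and 6.60. In cKO replicates 1 to 5 they were 6.08, 5.57, 5.38, 6.55 and 6.12. The WT mice spanned 1.15 and the cKO mice 1.17 log2 units, and the SD of 0.51 pooled over both genotypes was larger than that of 99.7% of all features. The difference was 0.06 (SE 0.26, 95% interval −0.51 to 0.63), an interval that runs from 0.703 to 1.55 times the WT level. Its sign turned when WT replicate 1 (−0.04), WT replicate 2 (−0.02), WT replicate 4 (−0.04) or cKO replicate 4 (−0.09) was left out. It was 0.08 within slide 2.

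The Kcnd3 ratios were high where the reference signal of the spot was low, although every array carried the same reference RNA. On 4 arrays, 2 of each genotype, the Cy3 signal of the spot was between 80 and 89 and the log2 ratio between 6.12 and 6.60. On the other 6 arrays, 3 of each genotype, the Cy3 signal was between 143 and 164 and the log2 ratio between 5.38 and 6.08. All 4 arrays of slide 2 were in the group with the higher Cy3 signal, both arrays of slide 3 were in the group with the lower one, and slide 1 held 2 arrays of each kind. The Cy3 reading of this spot, after normalisation, had a larger SD over arrays than 97.9% of features, whereas the Cy5 reading ranked at 81.1%. With the Cy5 channel alone the range over WT mice was 0.57 in place of 1.15, the range over cKO mice 0.67 in place of 1.17, and the difference −0.05.

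**Figure D2:**
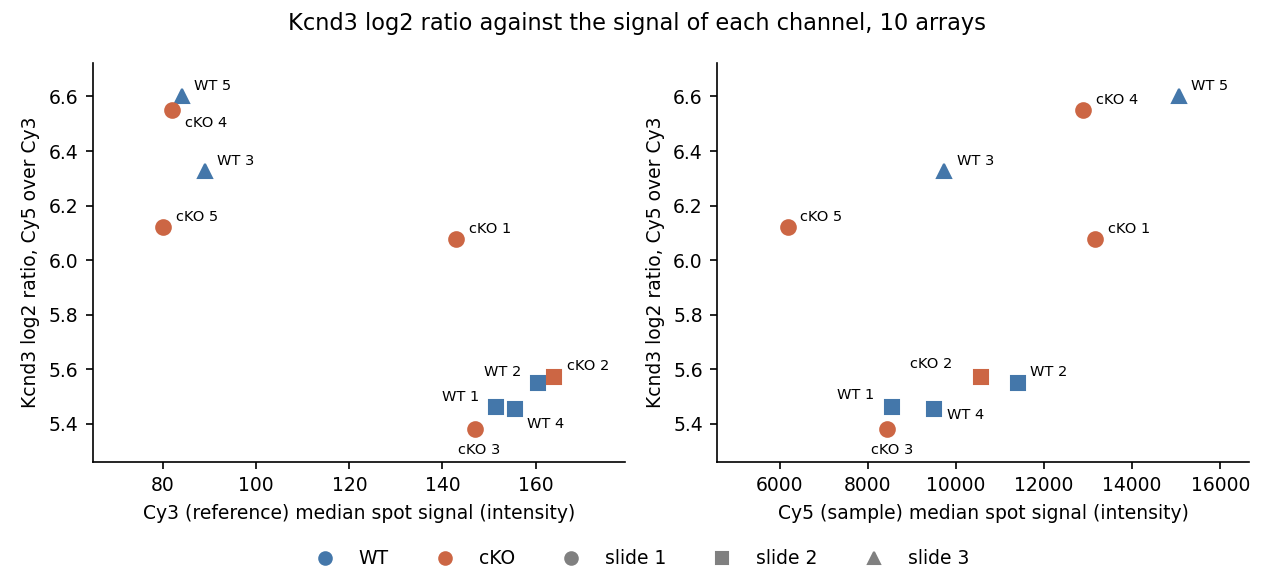
Log2 ratio of Kcnd3 (y axes) against the median spot signal of the reference channel (left) and of the sample channel (right), as intensity, on 10 arrays coloured by genotype with shapes for slides. The 4 arrays with Cy3 signals of 80 to 89 have log2 ratios of 6.12 to 6.60, above those of the 6 arrays with Cy3 signals of 143 to 164.

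Kcnq3 encodes Kv7.3, a subunit of the slow M-current channels that restrain repetitive firing. Its log2 ratios were 0.64, 1.03, 0.77, 0.88 and 1.13 in WT replicates 1 to 5. In cKO replicates 1 to 5 they were 1.09, 0.999, 0.80, 1.16 and 1.07. Of the cKO mice 4 of 5 lay above the WT median and 1 above all WT mice, while cKO replicate 3 lay among the low WT values. The difference was 0.13 (SE 0.10, 95% interval −0.08 to 0.34), and 0.07 to 0.19 when single mice were left out. The spot was dim in the sample channel (Cy5 97.5 to 179), and the added offset pulls such ratios towards 0. The value was 0.24 with an offset of 16 and 0.52 with plain background subtraction.

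Against the reference pool, a commercial RNA mixture, 6 of the 8 genes had a WT mean log2 ratio of at least 1, as did 20.6% of all features. For 5 of them the mean was at least 4, as it was for 3.04% of features. These ratios include any dye effect, because no dyes were swapped, and were not tested. The added offset also pulls them towards 0 where a spot is dim. With processed signals, to which no offset was added, WT log2 ratios were 7.08 to 7.36 for Kcna1, against 6.19 to 6.66 here. For Kcna2 they were 3.79 to 5.32, against 2.24 to 2.63, and for Kcna4 0.24 to 0.46, against 0.42 to 0.64. For Kcnd2 they were 10.98 to 12.05, against 6.99 to 7.73, and for Kcnc2 7.89 to 9.08, against 4.67 to 5.24. For Kcnq3 they were 2.84 to 3.80, against 0.64 to 1.13. The Kcna4 ratios thus moved towards 0 without an offset. Processed signals also carry other background and dye corrections, so these shifts do not measure the offset alone. The Cy3 spot was well above background on all 5 WT arrays for Kcna1, Kcna4, Kcnd3 and the brightest Kcnc1 probe, where WT samples had 84.7, 1.42, 58.8 and 18.2 times the reference signal, in that order. For Kcna2 it was well above background on 2 of the 5 WT arrays, with a ratio of 5.20 that rests in part on reference spots near background. For Kcnc2, Kcnd2 and Kcnq3 it reached that level on no array, so the ratios are bounds, with WT samples at least 27.9-fold, 171-fold and 1.79-fold above the reference. Each bound sets the mean sample signal against the dimmest reference signal that counted as well above background, or the spot's own where that was higher.

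The mice differed from one another in a way shared by several of the 8 genes. WT replicate 5 had the highest WT value for all 8, where it was the highest WT mouse for 28.4% of all features and for 40.2% of the 716 features with a WT mean of 4 or more. WT replicate 4 was the lowest WT mouse for 5 of the 8, as for 19.5% of all features and 29.3% of those 716. Among cKO mice, replicate 3 was the lowest for 5 of the 8, as for 21.0% of all features and 24.6% of the 716. The highest cKO mouse was replicate 1 for 4 genes (17.2% and 25.4%) and replicate 4 for 3 genes (16.5% and 17.9%), with the shares of all features and of the 716 in parentheses. Leaving out WT replicate 5, the highest WT value in each case, moved all 8 differences upwards, to 0.37 for Kcna1, 0.16 for Kcna2, −0.02 for Kcna4, 0.14 for Kcnc1, 0.18 for Kcnc2, 0.26 for Kcnd2, 0.24 for Kcnd3 and 0.19 for Kcnq3, and none passed the threshold. The smallest limma adjusted p among them was 0.937.

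**Figure D3:**
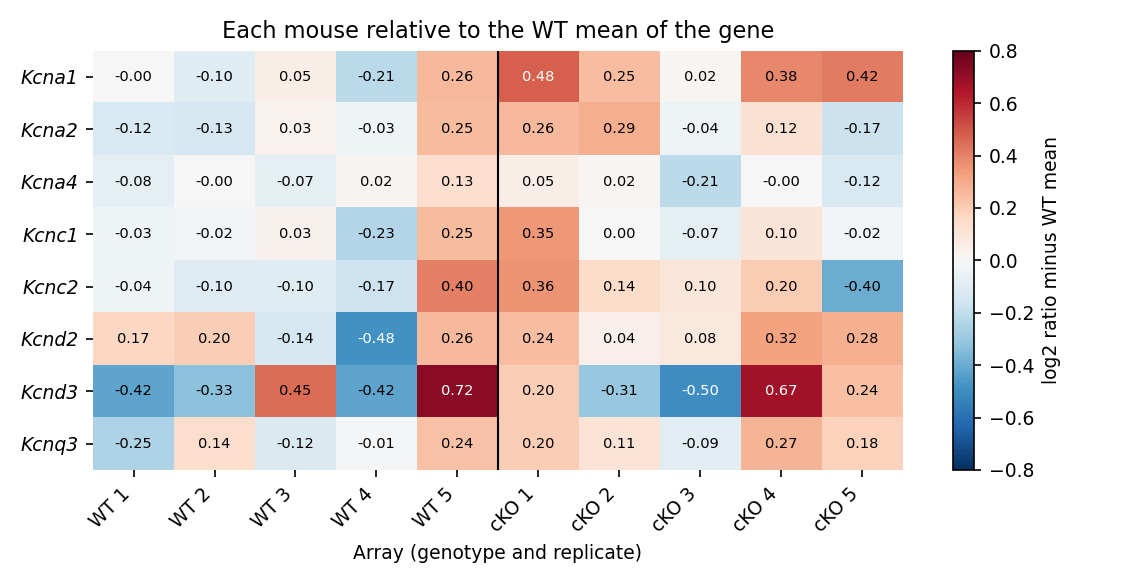
Log2 ratio of each mouse minus the WT mean of the gene, for the 8 genes (rows) and 10 arrays (columns), with the vertical line between genotypes and colour from −0.8 to 0.8. The WT replicate 5 column is positive in all 8 rows, and Kcnd3 spans the widest range.

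The same arrays differed in the overall spread of their log ratios. The SD over all features was 1.605 for WT replicate 5 and between 1.547 and 1.555 for the other WT arrays, and it was 1.558 to 1.610 for the cKO arrays, with cKO replicates 1 and 4 the widest. Features with a high ratio mostly had higher cKO means: of the 716 features with a WT mean of 4 or more, 85.1% had a higher cKO mean, with a median difference of 0.10. With quantile scaling that share was 50.4%, and 4 of the 8 potassium channel genes were higher and 4 lower in cKO samples. With median centring 5 of the 8 were higher, with the Cy5 channel alone 4 were, and with processed signals 5 were. Of all features, 25.8%, 48.3% and 49.9% were higher in these 3 settings, in that order, and 49.5% with quantile scaling. Of the 716 features, 54.5%, 48.2% and 80.9% were higher with median centring, the Cy5 channel alone and processed signals. With quantile scaling WT replicate 5 had the highest WT value for 7 of the 8, and with processed signals for 3. The members' median was 0.02 with quantile scaling, 0.03 with median centring, where the median of all features was −0.06, 0.10 with processed signals and −0.00261 with the Cy5 channel alone.

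**Figure D4:**
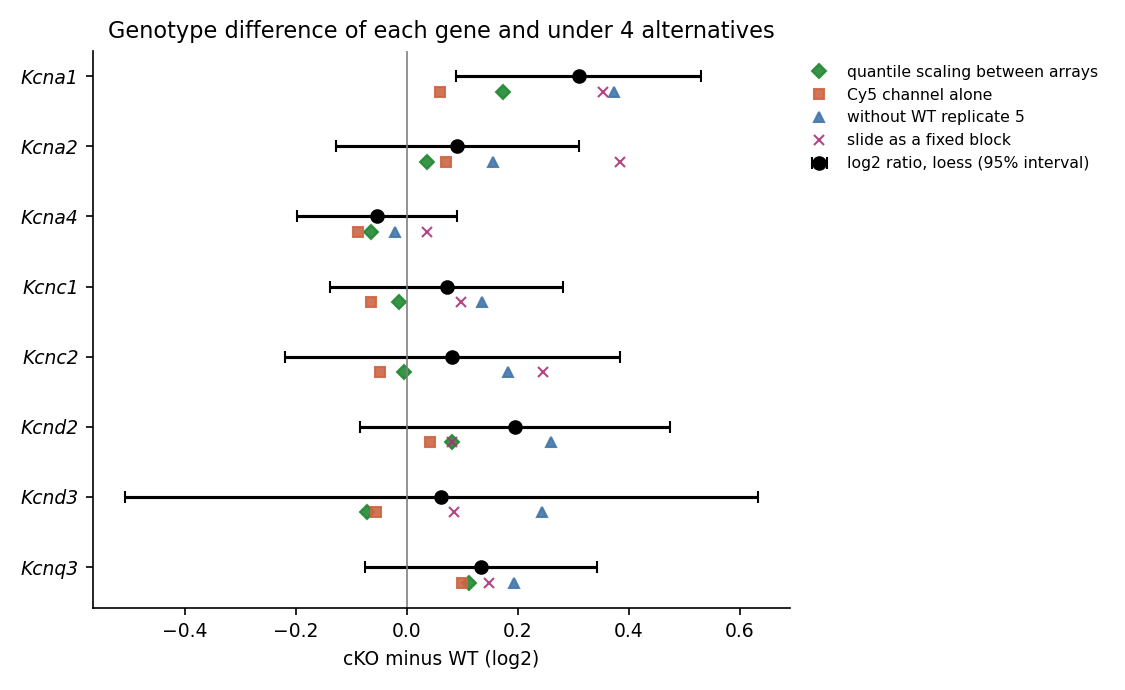
Difference cKO minus WT in log2 units (x axis) for the 8 genes (y axis); black points with bars are the limma estimates with 95% intervals from 5 WT and 5 cKO mice, and coloured symbols are the values under 4 alternatives. Kcna1 is the only gene whose interval excludes 0, and its value with the Cy5 channel alone is 0.06.

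Other voltage-gated alpha subunits gave values of similar size. Of 32 listed genes 27 were measured, 21 with higher and 6 with lower cKO means, and none passed; the median difference was 0.07. With the Cy5 channel alone 11 were higher and 16 lower. Among those with the smallest unadjusted limma p was Kcnq1 (0.15, SE 0.08), best known from heart and epithelia. At an unadjusted p under 0.05, 1 of the 27 was higher and none was lower, where 3.86% of all features reached it in either direction.

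Auxiliary and anchoring genes were measured for 18 of 20, with 16 higher and 2 lower in cKO samples and a median of 0.07. None passed, and with the Cy5 channel alone 9 were higher and 9 lower. Kcne2, a beta subunit that is abundant in choroid plexus epithelium, differed by 1.58 (SE 0.49), with WT values of 1.05 ± 0.55 and cKO values of 2.62 ± 1.24 (SD, n = 5 each). Markers of choroid plexus and ependyma were higher for 10 of 10 genes in the same comparison, with a median of 1.099 and list means of 0.55 to 1.58 in WT and 1.51 to 2.77 in cKO mice. Their part in the Kcne2 value was not tested. The next were Kcnip4 (0.22, SE 0.08), a calcium-binding subunit of Kv4 channels, Kcnab3 (0.36, SE 0.14), a beta subunit of Kv1 channels, and Cntn2 (0.14, SE 0.06), an adhesion protein that clusters Kv1 channels beside the node of Ranvier. Unadjusted limma p-values of these 4 were 0.00736, 0.0212, 0.0243 and 0.0565. At an unadjusted p under 0.05, 3 of the 18 were higher in cKO samples, where 2.83% of all features were. None was lower, where 1.03% were. Of all features, 54.8% had a higher cKO mean.

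**Figure D5:**
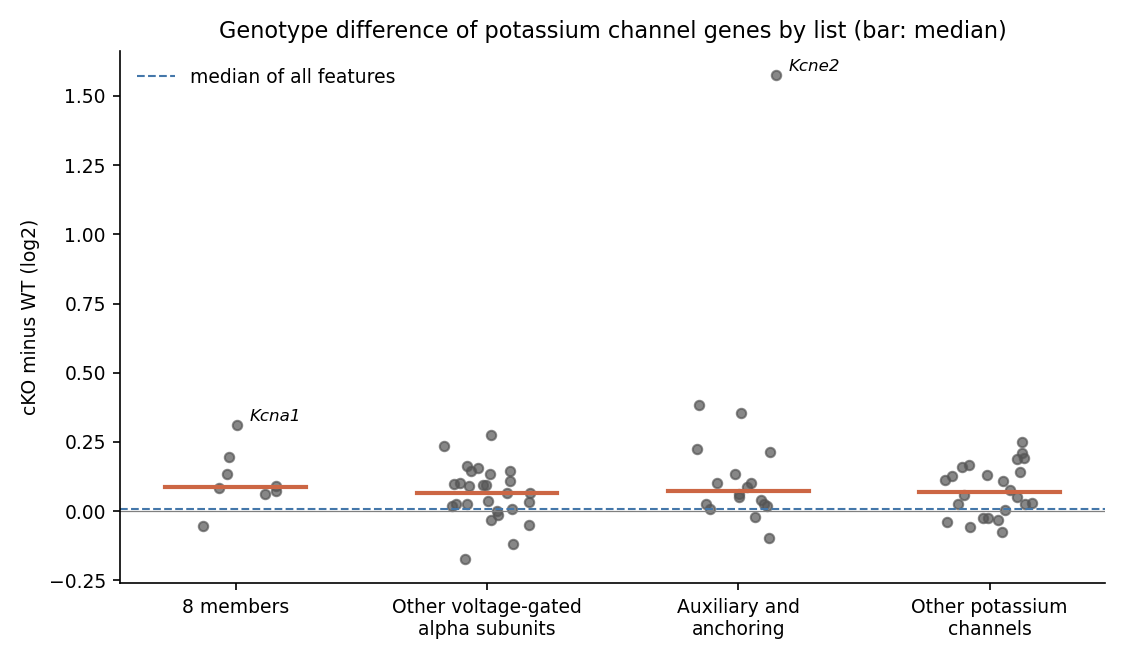
Difference cKO minus WT in log2 units (y axis) for the 8 members and for 3 other lists of potassium channel genes (x axis); points are genes, orange bars are list medians and the dashed line is the median of all features. The list medians lie between 0.07 and 0.09, and Kcne2 lies far above the other plotted genes at 1.58. Kcnj13, counted with the choroid plexus and ependyma markers, is not plotted.

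Cntn2, Kcna1 and Kcna2 belong to the juxtaparanodal complex of myelinated axons. Of 10 myelin markers 8 had a higher and 2 a lower cKO mean and none passed, with a median difference of 0.26 and list means of 3.22 to 3.65 in WT and 3.59 to 3.83 in cKO mice. Mag, a myelin adhesion protein, differed by 0.51 (SE 0.13) and Mbp, myelin basic protein, by −0.09 (SE 0.06). The myelin median was 0.17 with median centring, 0.18 with quantile scaling, 0.18 with processed signals and 0.31 with the Cy5 channel alone. The choroid plexus and ependyma median was 0.68 with processed signals, where 9 of 10 genes were higher, and 1.20 with the Cy5 channel alone. The part of myelin in the Kcna1 value was not tested. All 7 measured markers of the thalamus, a neighbouring tissue, had a higher cKO mean, as 54.8% of all features had. None passed. The median was 0.15, with list means of −0.07 to 0.10 in WT and 0.12 to 0.51 in cKO mice. The genes were uneven: Zic1 differed by 0.64 (SE 0.14) and Tnnt1 by 0.40 (SE 0.18), but Prkcd by 0.14 (SE 0.15) and Tcf7l2 by 0.01 (SE 0.07). The part of these markers in the members' values was not tested either.

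Potassium channels outside the voltage-gated family were measured for 24 of 26 listed genes. Of these 18 had higher and 6 lower cKO means, the median was 0.07, and none passed. The smallest unadjusted limma p-values belonged to Kcnk13, a leak channel known from microglia (0.19, SE 0.08), Kcnj9, a G-protein-gated rectifier subunit (0.16, SE 0.08), Kcnk1, another leak channel (0.13, SE 0.07), and Kcnt1, a sodium-activated channel (0.25, SE 0.14). The 8 members, the other alpha subunits, the auxiliary genes and these channels thus had medians of 0.09, 0.07, 0.07 and 0.07, and the medians were between −0.02 and 0.01 with the Cy5 channel alone.

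Over the 10 arrays, each member had other genes with a like pattern among 16165 named genes outside the members. The gene with the highest Pearson correlation was Map7 for Kcna1 (r = 0.96), Ccdc9 for Kcna2 (0.97) and Ank2 for Kcnc1 (0.98). It was Grpr for Kcnc2 (0.97), Nck2 for Kcnd2 (0.96), Lmo3 for Kcnd3 (0.95) and Zfp592 for Kcnq3 (0.92). These are the highest of many correlations, the arrays share slides and the spread of ratios described above, and the values are given as a description without a test.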

How the data were processed

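The hippocampus of 5 WT and 5 cKO mice was measured on 2-colour Agilent arrays. Spot intensity values were extracted by the authors with Agilent Feature Extraction 11.0.1.1, per the file headers. These files also hold processed intensity values and a log10 ratio of Cy5 over Cy3, both with background and dye corrections of that software, per the file headers; the log10 column was not used. The authors' deposited value table holds log2 values that correlated with the log2 ratios computed here at 0.99997 or more on each array; limma is named without a version in the submitters' processing notes.

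Median signals were corrected with normexp (offset 50) in limma 3.58.1 (R 4.3.3), after spots marked non-uniform were removed, and normalised by loess within arrays, with control spots at weight 0. The offset understates changes of dim spots. Spots marked as population outliers were removed and spots of a probe averaged. Probes well above background in Cy5 on at least 5 of 10 arrays were kept (28682), and the brightest stood for its gene. Names came from RefSeq accessions (GRCm38.p6, names only), for 26581 probes. Genotypes were compared with lmFit and eBayes, two-sided, with Benjamini-Hochberg adjustment over all 23574 features. Fits were tested on simulated data. The labels do not say which mice were prepared together, and p-values measure the spread between these samples. The number of arrays limits the precision.

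Members and gene lists were chosen with earlier results of these data known. Named genes are the 8 members, the 4 genes of each other list with the smallest unadjusted p, the gene most correlated with each member, the targeted gene and cell type markers; some genes that this rule names are not reported here. Alternatives covered background, marked spots, normalisation, filters, probe choice, slide, replicate number, array weights and single mice. Replicate numbers did not pair the mice: deviations from the group means of same-numbered mice correlated at −0.56 to 0.16 over features.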

Additional observations from a re-analysis of the deposited data

Results flagged for a closer look

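Kcnc2 in WT mice had 1 value far from the other 4. WT replicate 5 was at a log2 ratio of 5.24, the other WT mice lay between 4.67 and 4.80, and the gap took 0.770 of the whole range of the group, where Dixon's limit for 5 samples is 0.710. Among the 22 groups of probe values examined this was the only one past the limit, and chance alone flags about 1 in 20. Its Cy5 signal on this array, 3747, was also the highest of the 10.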

How the results depend on the processing

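None of the 8 genes passed the threshold under any of the 27 alternatives; the unadjusted limma p of Kcna1 was under 0.05 in 23 of them, and not with all spots in the background fit, median centring, the Cy5 channel alone or slide as a fixed block. Kcna1 (0.06 to 0.59) and Kcnq3 (0.07 to 0.52) kept their direction in all 27. The alternatives are not independent of one another, so such counts do not measure robustness. The Kcna1 difference stayed at 0.31 with either change of the filter on dim probes, the mean of kept probes, the replicate block and the deposited value table. Slide as a fixed block and the fit within slide 2 gave the same 0.35. Signs turned for Kcna2 (−0.0137) and Kcnd2 (−0.00705) with processed signals, and for Kcnc1 (−0.0116) and Kcnd3 (−0.0295) with median centring. They turned for Kcnc1 (−0.0139), Kcnc2 (−0.00556) and Kcnd3 (−0.0707) with quantile scaling between arrays, and for Kcnc1 (−0.0643), Kcnc2 (−0.0476) and Kcnd3 (−0.0547) with the Cy5 channel alone. They turned for Kcna4 with slide as a fixed block and within slide 2 (0.0363 in both) and with array weights (0.00686), and for Kcnd3 with log ratios scaled to one SD per array (−0.0143), an alternative chosen after seeing the data. Leaving out single mice turned Kcnd3 only (−0.0901 to 0.243). Median centring moved the median of all features to −0.06. Kcna1 was not the only member to reach an unadjusted limma p under 0.05. With array weights Kcna2 (0.0484), Kcnc2 (0.0387) and Kcnq3 (0.0383) did too, in a fit where 2614 of 23574 features did. Kcnd2 did with plain background subtraction (0.0288).

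The count of 1 feature past the threshold was 0 in limma with plain background subtraction (896 features at an unadjusted p under 0.05), with all spots in the background fit (860), with the Cy5 channel alone (587) and within slide 2 (1970). It was 2 with probes of a gene averaged, and 1 to 2 when single mice were left out (2 without cKO replicate 4). With the replicate block it was 1, all 8 member differences were the same, and no call changed. The 1 gene whose 2 brightest probes differed in genotype effect was lost with slide as a fixed block (0). The causes were not tested. Dim reference spots limit the ratios of Kcnc2, Kcnd2 and Kcnq3, and slide 2 holds a single cKO mouse.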
